A study of Homo sapiens with 12 samples.

Results

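The response described here is that of leukemia cells given Ara-C for 48 h in the presence of HS5 stromal cells, set against the same cells left untreated. Its arrays were chosen by their sample titles: 3 arrays of Ara-C with HS5 and 3 arrays of untreated cells, 6 of the 12 arrays of the study. Ara-C (cytarabine) is a nucleoside analogue that, once phosphorylated, is built into DNA and halts its synthesis. The cells are labelled Reh, a widely used leukemia line derived from B-cell precursors, and HS5 (also written HS-5) is a human stromal line that was made from bone marrow. The untreated group had neither Ara-C nor stroma. The other 6 arrays are 3 of cells given Ara-C alone and 3 of cells given Ara-C with stromal cells called HS. The labels do not describe HS further. All treated groups were harvested after 48 h, and no such time is listed for the untreated group. Per the labels, each group is an independent triplicate. No group had stroma without Ara-C, so the comparison with untreated cells joins the drug and the stroma, and their parts cannot be told apart within it. The dose of Ara-C and whether leukemia cells were parted from the stroma before RNA extraction are not given in the sources used here.

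Stalled DNA synthesis in leukemia cells is known to engage checkpoint kinases and p53, which raise inhibitors of the cell cycle and death receptors. Nucleoside analogues can also push immature blood cells toward maturation. Marrow stroma is known for secreting cytokines and holding leukemia cells through adhesion receptors, and type I interferon signalling raises a large set of antiviral genes through factors that include STAT2 and IRF9.

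Expression was measured on a single Illumina HumanHT-12 v3 BeadChip with 48800 probes per array. Between 13064 and 14898 probes were detected per array (detection p under 0.01), and 11183 genes were tested. Values below are log2 intensities after background correction and quantile normalization. A gene was called, that is, said to have risen or fallen, when its adjusted p over all genes was under 0.05 in a limma fit to all 12 arrays. Across genes, replicates correlated at r = 0.993 within the Ara-C with HS5 group and at 0.993 to 0.994 within the untreated group, against 0.946 to 0.949 between them. Each group lay on adjacent positions of the chip, and the effects of position and group cannot be told apart.

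The labelled cell type was borne out only in part by its markers. Of 19 B-lineage precursor markers tested, untreated cells had DNTT, the template-independent polymerase of immature lymphocytes, at a mean of 11.30 ± 0.09 (SD, n = 3), and the B-cell receptor subunits CD79B and CD79A at 10.50 and 8.68. PAX5, CD22, VPREB1, BLNK and CD34 were detected on none of the untreated or Ara-C with HS5 arrays. Genes of granulocyte precursors were measured as well. In untreated cells MPO, the myeloperoxidase of azurophil granules, stood at 15.32 ± 0.13 and CTSG, a granule protease, at 13.65 ± 0.06. Of 29 B-lineage markers listed, 15 were detected on every untreated array, MME, VPREB3 and EBF1 among them, and 9 on none of the 12 arrays. Of 32 granulocyte markers listed, 18 were detected on every untreated array and 10 on none of the 12, LTF, LCN2 and BPI among the latter. These data go against the label in part, and the cells are therefore called by it only as "labelled Reh".

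Of the 53 stromal fibroblast markers listed, 33 were detected on none of the 12 arrays, among them COL1A1, COL1A2, COL3A1, FN1, LUM, DCN and POSTN. Of 32 cytokines that stroma secretes, 26 were detected on no array, among them IL6, CSF2, CSF3, LIF and CXCL12. Of the 6 tested, 4 rose, IL8 and CCL2 among them, and VEGFA fell, with summed linear intensities from 990 to 1235 untreated, from 3252 to 3347 with HS5 and from 2804 to 3162 with Ara-C alone. The 3 cytokines not detected on every untreated array all rose, a direction that a filter on detection favours. Of the 17 fibroblast markers tested, 8 rose and 4 fell in Ara-C with HS5. The largest rises were of S100A6 (2.52 on the log2 scale), SPARC (at least 2.99-fold) and ACTA2 (1.63). Summed over the tested markers, linear intensity ran from 2392 to 2469 on untreated arrays, from 4890 to 5307 with HS5 and from 4896 to 5431 with Ara-C alone, a group that had no stromal cells. In these bulk samples, fewer cells of a type and less RNA per cell cannot be told apart.

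Ara-C with HS5 changed much of the measured transcriptome, and its largest changes were rises. Of 11183 genes tested, 6271 were called (56.1%), 3074 of them higher (27.5%) and 3197 lower (28.6%). Among called genes, 827 rose and 375 fell by at least 2-fold, 179 rose and 10 fell by at least 4-fold, and 36 rose and 0 fell by at least 8-fold on the fitted scale. The median change over all genes was -0.023 on the log2 scale. Groups did not overlap for 7023 of the 11183 genes, 3406 of them higher and 3617 lower with HS5. With so few arrays in a group, part of this count arises by chance. How large that part is was not tested, so the count is not a measure of the response. Besides the lymphoid genes below, the largest falls included KBTBD11, by 2.24 (4.71-fold), and GEMIN8, a component of the SMN complex, at least 4.04-fold lower. When arrays were only shifted to a common median instead of being quantile normalized, 3502 genes were called higher and 2123 lower, and the median of all genes became 0.09, so the balance of rises and falls depends on the scaling.

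The largest rise was of CDKN1A, the cyclin-dependent kinase inhibitor p21 and a classic p53 target. Its log2 intensities were 6.08, 6.14 and 6.09 on the untreated arrays and 11.09, 10.70 and 10.93 on the arrays of Ara-C with HS5. The groups lay far apart, and the rise was 27.9-fold (log2 4.80 ± 0.14 SE, adjusted p = 8.75e-11). The side-by-side log2 changes against the same untreated arrays were 4.62 with Ara-C alone and 2.37 with HS. FLNC, which crosslinks actin filaments, had 5.84, 6.11 and 5.82 untreated and 9.93, 9.96 and 9.91 with HS5, a 16.1-fold rise (adjusted p = 4.14e-10). EMP1, a membrane protein, was detected on none of the untreated arrays (4.67, 4.74 and 5.08) and on all 3 with HS5 (9.17, 8.97 and 9.16), at least 10.1-fold higher. The prostaglandin transporter SLCO2A1 rose at least 6.92-fold, also from no detection on untreated arrays. QPCT, a glutaminyl cyclase, differed by probe: the probe used, detected on 1 untreated array, rose by 3.59 on the log2 scale, while a second probe fell by 0.52 (adjusted p = 0.00407).

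**Figure D1:**
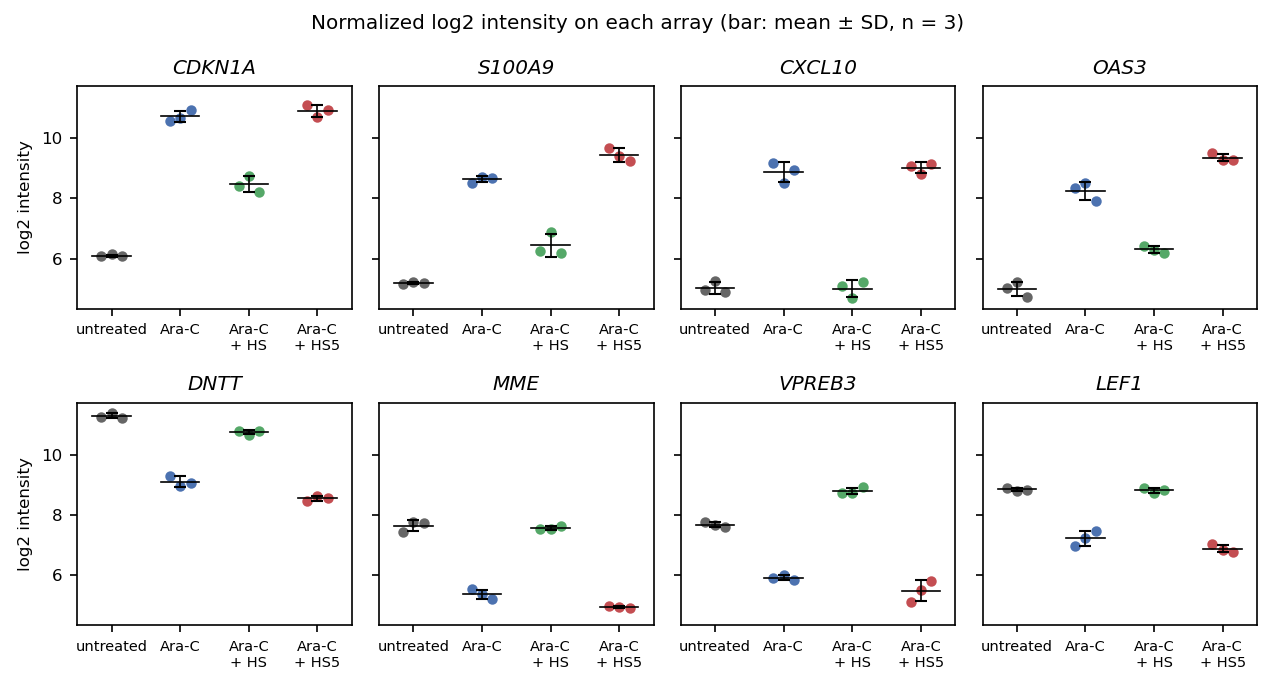
Normalized log2 intensity on each array (points) for 8 genes in the 4 groups, with the mean and SD over 3 arrays (bars). CDKN1A, S100A9, CXCL10 and OAS3 were higher with HS5 than untreated on every array, and DNTT, MME, VPREB3 and LEF1 lower. Levels of different genes are not comparable.

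Targets of p53 moved with CDKN1A. Of 23 tested, 14 rose and 3 fell, with a median of 0.54, or 0.50 with undetected genes at their bounds. The death receptor gene TNFRSF10B was 8.12, 8.18 and 8.07 untreated and 10.17, 9.90 and 9.96 with HS5, rising 3.68-fold (adjusted p = 4.71e-09). PMAIP1, the BH3-only protein NOXA, rose 3.12-fold, GADD45A by 1.28 on the log2 scale and FAS, another death receptor, by 0.98. CCNG1, CYFIP2 and TRIAP1 fell by 0.28 to 0.34. MDM2, the ubiquitin ligase that restrains p53, and BBC3 were detected on no array.

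Of 46 genes of DNA replication and S phase tested, 29 rose, 0 fell and 17 did not pass the test (median 0.37). CCNE2, a cyclin that drives the G1 to S transition, was 8.29, 8.47 and 8.27 untreated and 11.48, 11.41 and 11.31 with HS5, an 8.30-fold rise (adjusted p = 8.75e-11). Its partner gene CCNE1 rose by 1.61 on the log2 scale and the factor E2F2 by 1.47. TK1, thymidine kinase, rose 5.80-fold and RRM2, the inducible subunit of ribonucleotide reductase, 4.41-fold. Among genes of the replicative helicase, MCM3, MCM4 and MCM5 rose by 0.31 to 0.45, while MCM2 and MCM7 did not pass the test (0.16 and 0.01).

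Genes of mitosis were mixed, 17 of 47 rising and 11 falling with a median of 0.14, which became 0.00 with probes of a gene averaged. Over all genes tested, 27.5% rose and 28.6% fell, and whether this list or that of checkpoint and repair differs from those shares was not tested. SPC25 and NUSAP1, a kinetochore and a spindle protein, rose 2.21-fold and 2.10-fold. UBE2C, CDC20 and PLK1, which act in mitotic progression and exit, fell by 1.48, 0.65 and 0.73. Replication-dependent histones went down: of 11 tested, 0 rose and 7 fell (median -0.40). HIST1H4C, a histone H4 gene, was 14.60, 14.59 and 14.64 untreated and 13.58, 13.65 and 13.72 with HS5, a fall of 0.96 ± 0.09 SE (adjusted p = 1.54e-06). HIST1H2BH was at least 1.97-fold lower. Of 45 genes of checkpoint and repair, 14 rose and 10 fell (median 0.11), with EXO1, an exonuclease, up 2.15-fold. PMS2, a mismatch repair gene, fell by 1.15 by the probe used, while a second probe did not pass the test (-0.39, adjusted p = 0.117).

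Among 26 genes that take up, activate or break down cytarabine, 12 rose and 6 fell (median 0.17). DCK, the kinase that activates the drug, was 9.76, 9.87 and 10.04 untreated and 10.71, 10.27 and 10.48 with HS5. Every HS5 array lay above every untreated one, a 1.51-fold rise (adjusted p = 0.0005). CDA, the deaminase that inactivates the drug, went from no detection (4.98, 5.31 and 4.85) to 7.62, 7.71 and 7.19, at least 3.34-fold higher. NT5C, a nucleotidase, and the nucleoside transporter SLC29A2 fell by 1.04 and 0.85. The main uptake transporter SLC29A1 did not pass the test (-0.22).

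Genes that promote apoptosis rose more often than they fell, 17 against 2 of 28 (median 0.56). CASP1, the inflammatory caspase, rose 3.51-fold, TNFSF10, the death ligand TRAIL, 3.55-fold, and the caspase genes CASP6 and CASP8 by 0.94 and 0.93 on the log2 scale. BMF and BIK, BH3-only genes, were detected on all 3 HS5 arrays and no untreated one. Of 15 anti-apoptotic genes, 6 rose and 3 fell (median 0.08). BCL2 was 10.24, 9.95 and 10.14 untreated and 9.06, 9.23 and 8.76 with HS5, a fall of 1.09 ± 0.12 SE (adjusted p = 6.9e-06). BAG3, a co-chaperone, and PEA15 rose by 1.62 and 1.54. MCL1 rose by 0.33 (adjusted p = 0.0324), a call lost under 7 of the 16 alternative settings, and BIRC5, survivin, by 0.44. Neither gene passed by its second probe (0.05 and 0.25, adjusted p = 0.783 and 0.235).

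The type I interferon response had the largest share of rises among the pathway lists. Of 54 genes tested, 50 rose and 1 fell, 46 of the rises reached 2-fold, and the median was 1.81, or 1.56 with undetected genes at their bounds. Of the 36 members detected on every untreated array, 32 rose and 1 fell. The other 18 all rose, a direction that a filter on detection favours. OAS3, a synthetase that activates RNase L, was not detected untreated (5.02, 5.21 and 4.74) and reached 9.51, 9.27 and 9.29 with HS5, at least 12.1-fold higher. EPSTI1 was at least 10.2-fold higher, and CXCL10, a chemokine for T cells, at least 9.54-fold. Among genes measured in both groups, IFI35 had a mean of 5.98 ± 0.11 (SD, n = 3) untreated, and 9.64, 9.42 and 9.54 with HS5, an 11.7-fold rise (adjusted p = 8.75e-11). ISG20, an exonuclease, rose 12.7-fold and PARP9 9.14-fold (by 2.48 on the log2 scale by a second probe). Transcription factors of the pathway rose as well, STAT2 by 1.47, IRF9 by 2.19 and IRF7 by 2.45. MX2 was the member that fell (by 0.57), while MX1 rose by 1.37, and NMI, TRIM21 and IFITM2 did not pass the test. AIM2, a sensor of cytosolic DNA outside the list, was at least 5.76-fold higher. With Ara-C alone against the same untreated arrays, 46 of the 54 list members rose and 1 fell (median 1.38). With HS, 25 rose and 3 fell (median 0.36).

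**Figure D2:**
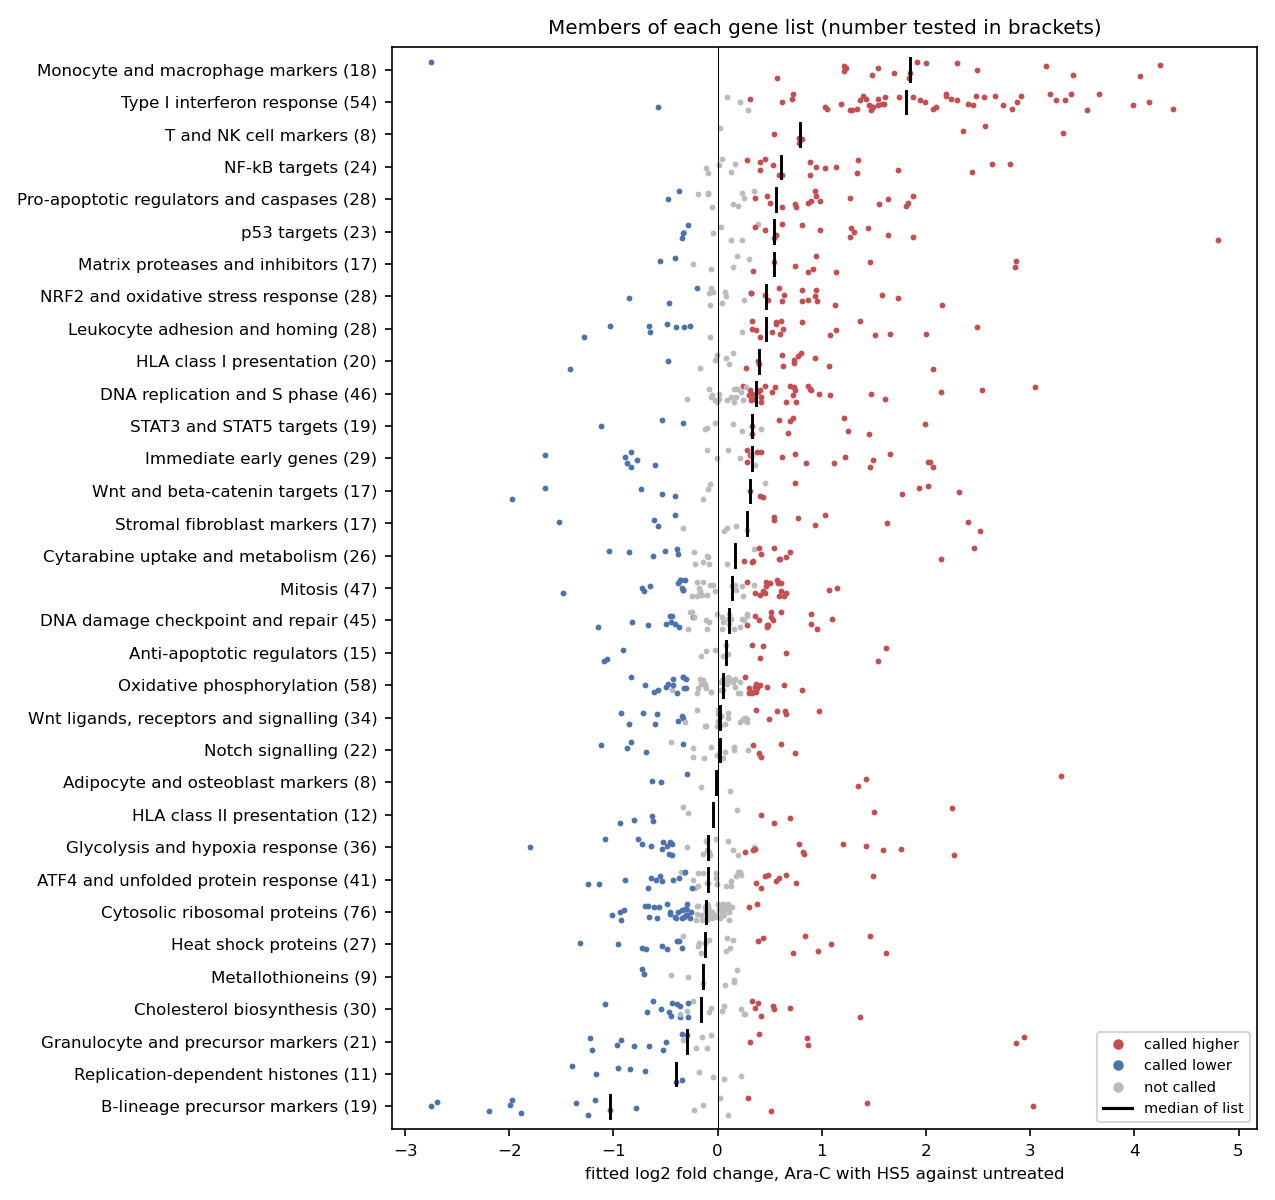
Fitted log2 fold change of each tested member of the gene lists with 8 or more members, Ara-C with HS5 against untreated. Black bars are list medians, which run from -1.03 for B-lineage precursor markers to 1.84 for monocyte and macrophage markers, beside -0.023 for all genes.

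Promoters of the interferon genes are shown because members of this list differed between Ara-C with HS5 and Ara-C alone. RefSeq promoters (GRCh38.p14), reaching from 250 bases before to 50 after the start site, matched 8210 of the 11183 tested genes and 45 of the 54 list members. The core of the interferon response element, TTTCNNTTT on either strand, was in 33 of these 45 (73.3%), against 7.26% of all 8210. It was in 31 of the 43 matched members that rose against untreated cells (72.1%) and in 2 of the 2 that did not. Of the 14 called higher with HS5 than with Ara-C alone, 11 held it (78.6%), and whether this share differs from that of the whole list was not tested. The promoters of the 4 members with the largest such rises that hold the core follow, 5′ to 3′, with each core in capitals, and a match is a description of the letters, not a site of binding. IFI27 lies on the plus strand at chr14:94110486-94110785, IFI44L on the plus strand at chr1:78620198-78620497, OAS3 on the plus strand at chr12:112938224-112938523 and EPSTI1 on the minus strand at chr13:42992192-42992491.
IFI27: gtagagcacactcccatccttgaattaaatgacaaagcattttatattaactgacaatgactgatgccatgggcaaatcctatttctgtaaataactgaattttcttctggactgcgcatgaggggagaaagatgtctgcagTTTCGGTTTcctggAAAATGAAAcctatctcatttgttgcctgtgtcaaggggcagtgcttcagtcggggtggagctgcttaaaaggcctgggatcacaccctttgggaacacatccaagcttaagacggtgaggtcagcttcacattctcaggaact
IFI44L: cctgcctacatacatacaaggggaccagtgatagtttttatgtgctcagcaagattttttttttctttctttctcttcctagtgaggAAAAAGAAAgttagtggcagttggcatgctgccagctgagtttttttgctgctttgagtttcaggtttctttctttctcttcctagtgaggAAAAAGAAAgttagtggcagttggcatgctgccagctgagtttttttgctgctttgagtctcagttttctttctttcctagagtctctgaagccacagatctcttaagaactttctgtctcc
OAS3: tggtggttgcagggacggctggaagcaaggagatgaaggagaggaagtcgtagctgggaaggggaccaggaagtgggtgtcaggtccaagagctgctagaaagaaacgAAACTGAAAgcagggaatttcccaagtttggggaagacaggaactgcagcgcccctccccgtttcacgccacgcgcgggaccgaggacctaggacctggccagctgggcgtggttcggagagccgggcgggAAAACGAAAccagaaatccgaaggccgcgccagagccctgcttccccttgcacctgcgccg
EPSTI1: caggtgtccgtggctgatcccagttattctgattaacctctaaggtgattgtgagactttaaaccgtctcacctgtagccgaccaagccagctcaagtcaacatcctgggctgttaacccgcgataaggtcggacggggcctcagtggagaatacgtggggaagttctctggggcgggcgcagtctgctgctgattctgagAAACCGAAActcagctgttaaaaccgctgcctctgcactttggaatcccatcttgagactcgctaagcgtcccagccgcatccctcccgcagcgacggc
The E2F motif TTTNGCGC, on either strand, was in 14 of 38 matched promoters of the replication list (36.8%), against 3.18% of all. It was in 7 of the 23 whose genes rose (30.4%) and in 7 of the 15 whose genes did not (46.7%).

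Of 18 monocyte and macrophage markers tested, 17 rose, 16 of them by at least 2-fold, and 1 fell (median 1.84, or 1.60 at bounds). Of the 18, 10 were detected on every untreated array, of which 9 rose, and all 18 were detected on every HS5 array. The other 8 all rose, a direction that a filter on detection favours. S100A9 and S100A8, the subunits of calprotectin, were detected on none of the untreated arrays. With HS5, S100A9 reached 9.68, 9.41 and 9.23, at least 12.8-fold higher, and S100A8 8.82, 8.77 and 8.76, at least 8.11-fold. CD86, a costimulatory ligand of antigen-presenting cells, was at least 8.76-fold higher by the probe used and 1.85 higher on the log2 scale by a second probe. TYROBP, an adaptor of myeloid receptors, rose by 3.15, ITGAM, the integrin CD11b, by 2.49, LYZ, lysozyme, by 1.91 and CSF1R, the receptor of macrophage colony-stimulating factor, by 1.85. CD14, a receptor for lipopolysaccharide, was at least 2.84-fold higher. MS4A7 went the other way, from 9.70, 9.80 and 9.73 to 7.16, 6.84 and 6.99, a fall of 2.75 ± 0.10 SE (adjusted p = 4e-10). CD163, MRC1, MSR1, MARCO and C1QA, markers of mature macrophages, were detected on no array. The summed linear intensity of the 18 markers ran from 6668 to 7029 untreated and from 14216 to 15064 with HS5.

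Granulocyte genes did not move with the monocyte genes. Of 21 tested, 6 rose and 10 fell (median -0.29). The granule proteases PRTN3 and CTSG fell by 0.97 and 0.93, MPO by 0.52 ± 0.09 SE (adjusted p = 0.000342), and the defensins DEFA1 and DEFA4 were detected on every untreated array and on none with HS5. CAMP, the cathelicidin of secondary granules, rose by 2.94 and MMP9, gelatinase, by 2.86, whereas LTF, LCN2 and MMP8 were detected on no array. Summed linear intensity of the 21 markers ran from 75148 to 80368 untreated and from 60730 to 62758 with HS5.

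Of 19 markers of B-lineage precursors tested, 11 fell, 10 of them by at least 2-fold, and 4 rose (median -1.03, or -0.35 with undetected genes at their bounds). Of the 14 detected on every HS5 array, 6 fell and 4 rose. DNTT was 11.27, 11.40 and 11.23 untreated and 8.45, 8.62 and 8.57 with HS5, 6.72-fold lower (adjusted p = 4.14e-10). MME, the surface peptidase CD10, was 7.43, 7.77 and 7.72 untreated and was detected on none of the HS5 arrays, at least 3.71-fold lower. VPREB3, which associates with the pre-B-cell receptor, was at least 3.81-fold lower and EBF1, a factor that specifies B cells, at least 3.14-fold. RAG1, a recombinase subunit, fell by 1.89, CD24 by 1.36 and IGLL1, the surrogate light chain, by 1.18. CD79A did not pass the test (-0.23), and FCRLA, CD72, FLT3 and CD79B rose. Summed linear intensity of the 19 markers ran from 8535 to 8911 untreated and from 4629 to 5005 with HS5.

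**Figure D3:**
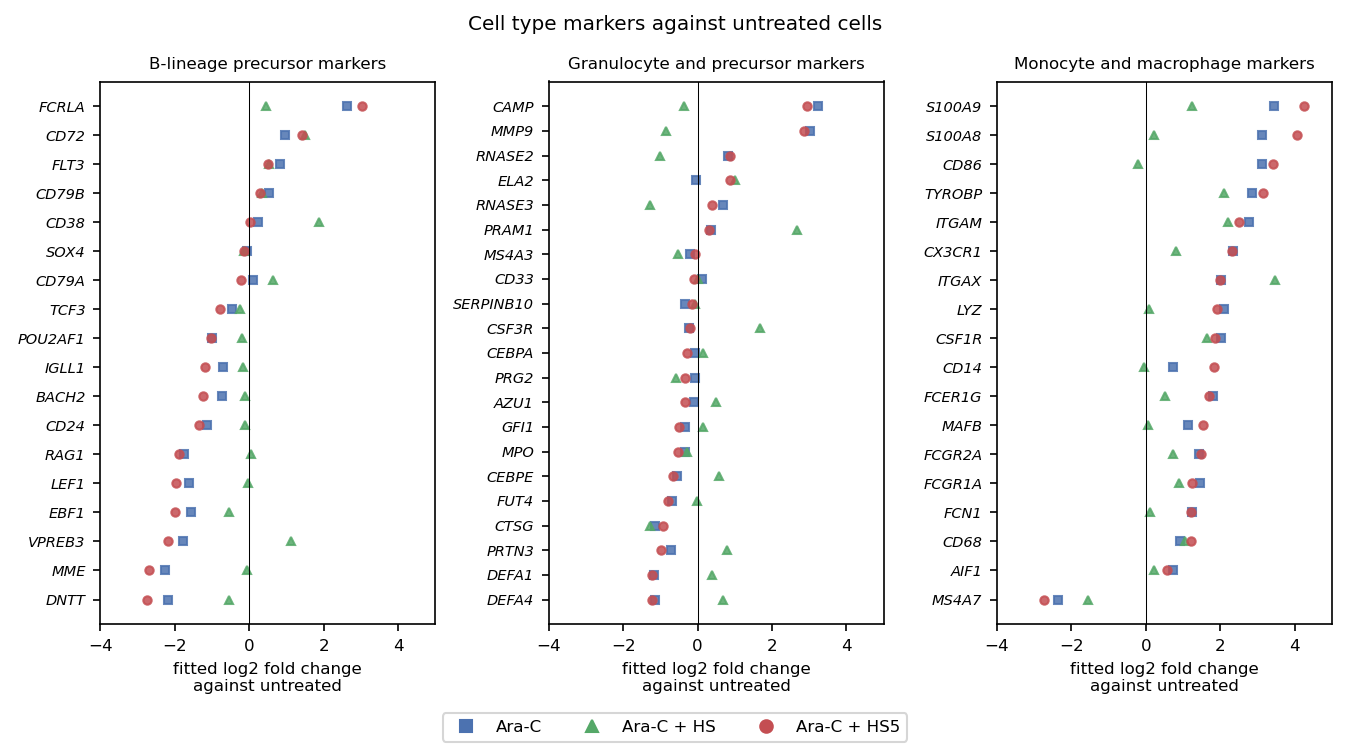
Fitted log2 fold changes against untreated of tested B-lineage, granulocyte and monocyte markers (18 of 19, all 21 and all 18) in Ara-C alone (squares), Ara-C with HS (triangles) and Ara-C with HS5 (circles). The 3 treated groups share the untreated arrays. With HS5, 17 of 18 monocyte markers rose and 11 of 19 B-lineage markers fell.

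Markers of other blood lineages moved too. Of 8 T and NK cell markers tested, 7 rose and 0 fell (median 0.80), led by NKG7, a cytotoxic granule protein, which rose by 3.32 on the log2 scale from 8.11, 8.28 and 8.10 to 11.58, 11.41 and 11.48. GZMA, granzyme A, rose 5.93-fold and CD8A was at least 2.35-fold higher. CD3D, a T-cell marker, was bright before treatment, at 11.16, 11.23 and 11.18 untreated and 12.03, 11.88 and 12.01 with HS5. It rose by 0.78 (adjusted p = 1.78e-05), and by 1.05 by a second probe. CD2, CD3E, CD5 and CD7 were detected on no array. Summed linear intensity of the 8 markers, CD3D included, ran from 3346 to 3645 untreated and from 7993 to 8740 with HS5. Of 5 erythroid and megakaryocyte markers tested, 3 rose and 2 fell, TFRC and GP1BA, and 14 more, the globin genes HBB and HBG1 among them, were detected on no array. Their summed linear intensity ran from 6924 to 8941 untreated and from 5209 to 6912 with HS5. Of 8 adipocyte and osteoblast markers, 3 rose and 3 fell (median -0.02). SPP1, osteopontin, was at least 6.54-fold higher, PPARG and LPL rose by 1.35 and 1.42, and LEPR, RUNX2 and CEBPA fell by 0.63, 0.54 and 0.29. The 3 endothelial markers tested, PECAM1, TIE1 and VWF, rose, from summed intensities of 230 to 319 untreated to 458 to 573 with HS5. The part of any other cell type in these values was not tested.

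Chemokines and other NF-kB targets rose, 18 of 24 with 0 falling (median 0.60, or 0.44 with undetected genes at their bounds). Of the 17 detected on every untreated array, 12 rose. Of the other 7, 6 rose, a direction that a filter on detection favours. With Ara-C alone against untreated cells, 16 of the 24 rose and 0 fell. IL8, the neutrophil chemokine CXCL8, was 9.08, 8.97 and 8.49 untreated and 11.21, 11.33 and 11.32 with HS5, a 5.43-fold rise (adjusted p = 3.61e-07). CCL2, a monocyte chemokine, and EBI3, a cytokine subunit, went from no detection to at least 3.44-fold and 3.75-fold higher. The subunits NFKB1, REL and RELB did not pass the test, and NFKBIA, the feedback inhibitor, rose by 0.89. Of 19 targets of STAT3 and STAT5, 10 rose and 3 fell (median 0.33), with the kinase gene PIM1 up 3.98-fold and CEBPD down by 1.12. Immediate early genes were split, 16 of 29 rising and 7 falling (median 0.33): JUN rose 4.05-fold, DUSP5 4.12-fold and SGK 4.20-fold, while EGR1 fell by 0.87.

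LEF1, a factor that acts with beta-catenin, was 8.91, 8.80 and 8.84 untreated and 7.02, 6.84 and 6.78 with HS5, a fall of 1.97 ± 0.12 SE (adjusted p = 2.46e-08). MYC fell from 12.99, 12.89 and 13.15 to 11.15, 11.53 and 11.37, by 1.66 ± 0.11 SE (adjusted p = 5.81e-08). In the list of 17 Wnt and beta-catenin targets, which holds both, 8 rose and 5 fell (median 0.31, or 0.00 at bounds). CCND1, cyclin D1, rose 3.42-fold and ID2 3.81-fold. CTNNB1, beta-catenin itself, was 8.34, 8.10 and 8.31 untreated and 8.32, 8.09 and 8.40 with HS5, overlapping groups that did not pass the test (0.02, adjusted p = 0.903). Its other probes disagreed, 1 rising by 0.62 (adjusted p = 0.00966) and 1 not passing (-0.10, adjusted p = 0.529). Of 34 Wnt ligands, receptors and signalling genes, 6 rose and 8 fell (median 0.02), FZD6, a receptor, by 0.97 upward and RUVBL1 by 0.85 downward. Of 22 Notch genes, 5 rose and 5 fell, the ligands DLL1 and JAG1 in opposite directions (0.74 and -0.83). Beside these lists, 27.5% of all genes rose and 28.6% fell.

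Genes of adhesion and homing were reshaped. Of 28 tested, 18 rose and 8 fell (median 0.46). ITGA4, the alpha chain of VLA-4, through which leukemia cells bind stromal VCAM1 and fibronectin, was 9.50, 9.64 and 9.66 untreated and 8.36, 8.51 and 8.10 with HS5, a fall of 1.28 ± 0.12 SE (adjusted p = 1.97e-06). CXCR4, the receptor for CXCL12, fell by 0.66 (adjusted p = 0.000288) and ITGA6 by 0.65. The integrins ITGAM and ITGAX of myeloid cells rose, the latter from no detection, and VCL, vinculin, rose 3.14-fold (by 0.78 on the log2 scale by a second probe). Of 17 matrix proteases and inhibitors, 10 rose and 2 fell (median 0.54): MMP25 rose 7.21-fold from 6.51, 6.52 and 6.36 to 9.27, 9.35 and 9.31, and TIMP2 rose 2.76-fold.

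Antigen presentation changed gene by gene. Of 20 class I genes, 12 rose and 2 fell (median 0.39), with the immunoproteasome subunit PSMB9 up 4.19-fold by 1 probe and by 0.47 on the log2 scale by another, and HLA-B up by 0.93. Of 12 class II genes, 5 rose and 4 fell (median -0.04, or 0.16 with arrays shifted to a common median). HLA-DMA, which loads peptides, rose 4.77-fold and HLA-DRA fell by 0.94.

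Of 28 genes of the NRF2 response, 17 rose and 3 fell (median 0.46): ME1, malic enzyme, rose 4.45-fold, AKR1C3 3.31-fold and FTH1, the ferritin heavy chain, 2.99-fold. Of 41 genes of the ATF4 and unfolded protein responses, 9 rose and 12 fell (median -0.09), with asparagine synthetase ASNS down by 1.24 and ATF3 up 2.81-fold. Cholesterol synthesis had 8 rises and 12 falls among 30 genes, INSIG1 falling by 1.08. Glycolysis and hypoxia genes had 11 rises and 12 falls among 36, ADM rising 4.81-fold and ANKRD37 at least 2.60-fold lower. Among 27 heat shock genes 8 rose and 9 fell, among 58 of oxidative phosphorylation 14 rose and 14 fell, and among 9 metallothionein genes 0 rose and 2 fell. The shares over all genes were 27.5% rising and 28.6% falling, and no list was tested against them. Of 76 cytosolic ribosomal protein genes, 2 rose and 26 fell, with a median of -0.11, or -0.29 with arrays shifted to a common median. The largest fall among them was of RPL22, by 1.01.

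Against Ara-C alone, Ara-C with HS5 differed at few genes, which asks what HS5 stroma added to the drug. Of 11183 genes, 101 were called (0.903%), 59 higher with HS5 (0.528%) and 42 lower (0.376%), and 8 of the rises and 3 of the falls reached 2-fold. Leaving out Ara-C alone replicate 1, 2 or 3 left 50, 31 and 28 calls, and leaving out HS5 replicate 1, 2 or 3 left 32, 47 and 40. Only MUC1 passed a test for a change beyond 1.5-fold. With arrays shifted to a common median, 34 genes were higher and 65 lower, and the median of all genes moved to -0.11. Of the 59 genes higher than with Ara-C alone, 54 were also called higher than untreated. Of the 42 lower genes, 13 were higher than untreated, 20 lower and 9 not called. Both comparisons use the same HS5 arrays, which favours calls in the same direction. Over all genes, 27.5% were called higher than untreated and 28.6% lower.

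MUC1, a membrane mucin, was 8.20, 8.15 and 8.11 with Ara-C alone and 9.62, 9.67 and 9.64 with HS5, 2.81-fold higher (adjusted p = 4.37e-05). Its untreated values, 6.67, 6.91 and 7.14, lay below both groups. SLC12A8, a transporter of the cation-chloride family, and IFI44L were detected on none of the Ara-C alone arrays and on all 3 with HS5, at least 1.80-fold and 1.38-fold higher. BCL3, a nuclear partner of NF-kB, and PIM1 were 1.89-fold and 1.73-fold higher (adjusted p = 0.000847 and 0.00571). AIM2 was 6.87, 6.77 and 7.21 with Ara-C alone and 8.35, 8.26 and 8.26 with HS5, 2.53-fold higher (adjusted p = 0.000581). Of the 18 monocyte markers, 3 were called higher with HS5, CD14 by 2.17-fold, S100A8 by 1.92-fold and S100A9 by 1.74-fold. The other 15 did not pass the test, and the median of the list was -0.04. Its summed linear intensity ran from 13561 to 15057 with Ara-C alone and from 14216 to 15064 with HS5. Against untreated cells, 17 of the 18 also rose with Ara-C alone (median 1.91).

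The interferon list held 18 of the 59 higher genes. Of its 54 members, 18 were called higher with HS5 than with Ara-C alone and 0 lower, 53 had a positive value, and the median was 0.51, beside -0.005 for all genes. IFI27 was 6.60, 6.86 and 6.59 with Ara-C alone and 8.41, 8.03 and 8.27 with HS5, 2.93-fold higher (adjusted p = 0.000581). OAS2 was 8.03, 7.72 and 7.84 against 9.56, 9.08 and 9.31, 2.74-fold higher, and OAS3 2.14-fold. IRF7 was higher by 0.69 on the log2 scale. CXCL10, PSMB9, MX2 and NMI did not pass the test (0.14, 0.04, 0.05 and -0.08). The members called higher numbered 10 to 14 with any 1 of these arrays left out, 16 with arrays shifted to a common median and 28 without background correction.

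**Figure D4:**
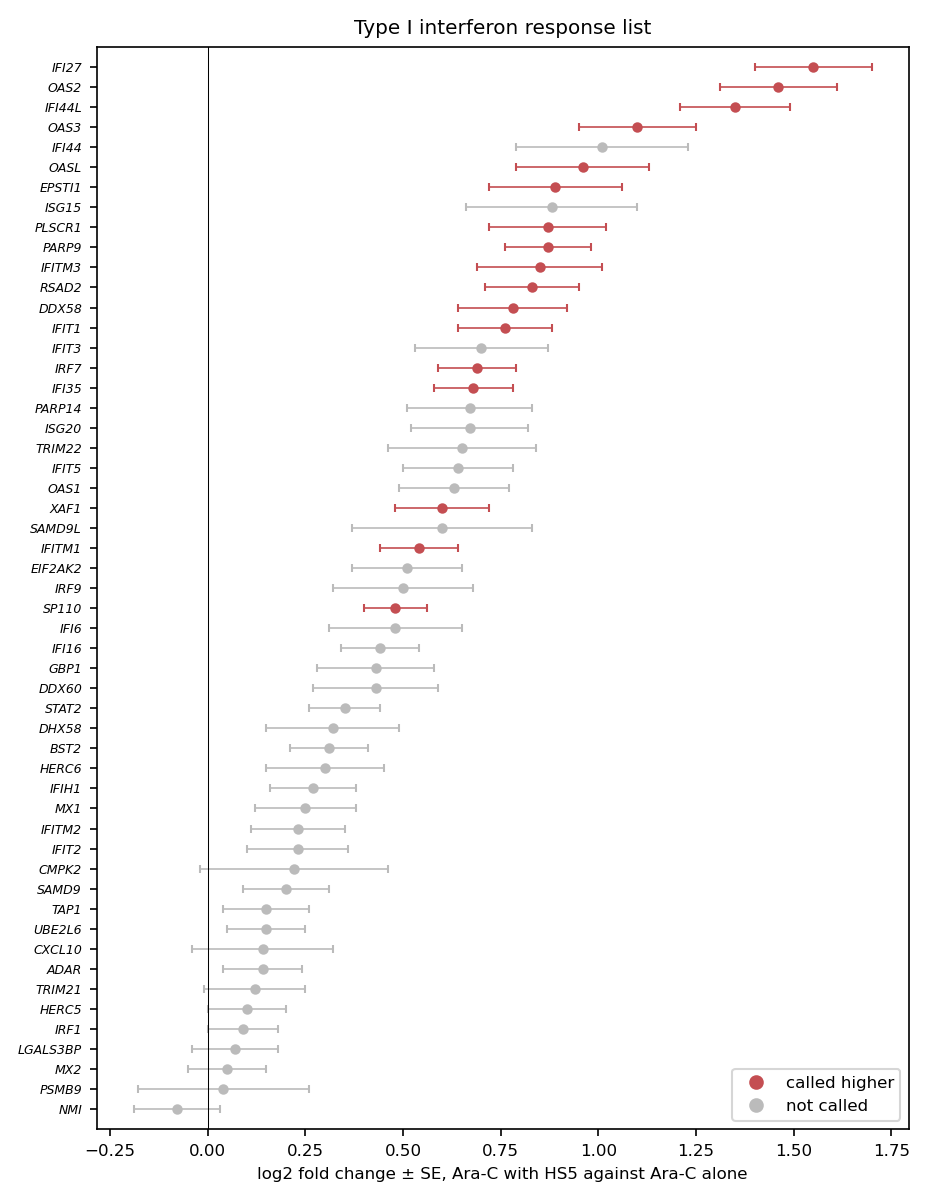
Log2 fold change with its SE for 53 of the 54 tested interferon genes, Ara-C with HS5 against Ara-C alone. Genes called higher are red, IFI27 leads at 1.55, and NMI is the 1 gene below 0.

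Among genes lower with HS5 than with Ara-C alone and measured in both groups, UPB1, COL17A1 and CCNA1 differed most. UPB1, the last enzyme of pyrimidine breakdown, was 8.97, 8.76 and 8.77 with Ara-C alone and 7.59, 7.79 and 7.33 with HS5, 2.40-fold lower (adjusted p = 0.0281), though 2.04 above untreated on the log2 scale. COL17A1, a transmembrane collagen, had a mean of 7.99 ± 0.04 (SD, n = 3) with Ara-C alone and 7.19 ± 0.18 with HS5, 1.75-fold lower (adjusted p = 0.0168), and CCNA1, cyclin A1, was 1.71-fold lower. PLS3, an actin bundler, and FBP1, a gluconeogenic phosphatase, were each detected on 2 of the 3 Ara-C alone arrays and on none with HS5, and their bounds were only 1.06-fold and 1.05-fold. DNTT (9.31, 8.97 and 9.05 with Ara-C alone) and ITGA4 (8.73, 9.03 and 9.07) lay lower again with HS5, by 0.56 and 0.62, as did IGLL1 by 0.50. A second DNTT probe did not pass the test (-0.33, adjusted p = 0.268). LTB, lymphotoxin beta, was lower by 0.64.

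Against Ara-C with HS, the second stromal group, differences were many. Of 11183 genes, 4830 were called (43.2%), 2335 higher with HS5 (20.9%) and 2495 lower (22.3%), with 346 rises and 296 falls of at least 2-fold. EMP1 and CXCL10 were detected on none of the HS arrays, at least 11.3-fold and 10.7-fold higher with HS5, and GZMA at least 8.04-fold. CYTL1, a secreted cytokine-like protein, was higher by 3.91 on the log2 scale (adjusted p = 1.13e-10), ASGR2 by 3.77 and MMP9 by 3.72. VPREB3 was at least 8.28-fold lower with HS5 and MME at least 3.52-fold. DHRS3, a retinal reductase, SLC2A5, a fructose transporter, and PRAM1 were lower by 2.41, 2.41 and 2.35.

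By list, 45 of 54 interferon genes were higher with HS5 than with HS and 3 lower (median 1.52), and 12 of 18 monocyte markers were higher and 2 lower. Of 19 B-lineage markers 1 was higher and 14 lower (median -1.02), and of 9 metallothionein genes 0 were higher and 7 lower (median -1.19). Cholesterol synthesis had 17 of 30 higher and 2 lower, and oxidative phosphorylation 27 of 58 higher and 8 lower. Over all genes, 20.9% were higher and 22.3% lower. Against untreated cells, cholesterol synthesis had 4 rises and 19 falls with HS, beside 8 and 12 with HS5. Oxidative phosphorylation had 1 rise and 23 falls with HS, beside 14 and 14 with HS5. Metallothionein genes had 7 rises and 1 fall with HS, beside 0 and 2 with HS5. Of 46 replication genes, 21 were higher with HS5 than with HS and 5 lower. Set beside each other against the shared untreated arrays, LEF1 changed by -1.97 with HS5, -1.62 with Ara-C alone and -0.03 with HS, DNTT by -2.75, -2.19 and -0.55, and MYC by -1.66, -1.36 and -0.63.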

How the data were processed

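Total expression was measured on Illumina HumanHT-12 v3 BeadChips. Per the file headers, the authors deposited for each array a mean bead signal per probe, a linear intensity, and a detection p-value. A series table of log2 values was also deposited by the authors. It matched log2 of the quantile-normalized raw signals within 0.000167, so it holds no background correction. R 2.9.2 is named in the submitters' processing notes.

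Signals were background corrected, quantile normalized and log2 transformed with limma 3.58.1 (neqc, offset 16) in R 4.3.3. Probes with detection p under 0.01 on at least 3 of 12 arrays were kept (14939), and the brightest probe stood for a symbol, giving 11183 genes. All 12 arrays were fitted with 4 group means (8 residual degrees of freedom, lmFit and eBayes), and p-values were adjusted by the Benjamini-Hochberg method over all genes. Every adjusted p is from limma. Where a gene was detected on no array of the dimmer group, a lower bound of the fold was computed against, per array, the higher of the lowest detected level and the gene's own value. Precision is limited by having 3 arrays in a group.

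The rule for named genes took, among called genes whose groups did not overlap, the 12 largest rises and falls against untreated cells and the 8 largest in each other comparison. It added up to 4 members per list by adjusted p and 14 genes by name, and left out uncharacterised names. Further list members, and genes set beside them, were named after their values were seen. A few genes are not reported here, though counts and medians include them. Members and lists were chosen with earlier results of these data known. HS5 and untreated arrays of the same replicate number showed no shared deviation from their group means (r = -0.01, -0.03 and -0.03). Such correlations cannot tell whether the cultures were set up as pairs. Pairing with the arrays of the other groups was not checked. The fitting was tested on simulated data. Alternatives were other background corrections, normalizations, probe filters and probe summaries, array weights, a replicate block, a minimum fold, and leaving out single arrays.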

Additional observations from a re-analysis of the deposited data

Results flagged for a closer look

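Genes are given here because they were called in opposite directions against the shared untreated arrays in Ara-C with HS5 and in another treated group, and the difference itself was called by limma. Against Ara-C alone there were 2 such genes. IRAK4, a kinase of Toll-like receptor signalling, changed by 0.36 with HS5 and -0.30 with Ara-C alone, a difference of 0.66 ± 0.12 SE (adjusted p = 0.0223). ADM2, a peptide of the adrenomedullin family, changed by 0.29 and -0.29, a difference of 0.58 ± 0.08 SE (adjusted p = 0.00401).

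Against Ara-C with HS there were 292, of which the 10 that changed by at least 2-fold each way are named, a limit chosen after their values were seen. Of these, 5 were higher with HS5. CYTL1 changed by 2.61 with HS5 and -1.30 with HS, a difference of 3.91. GZMA differed by 3.87 on the fitted scale and was detected on no HS array, so it was at least 8.04-fold higher. CYP1B1, a cytochrome of the aryl hydrocarbon response, differed by 3.50, and SLPI, a protease inhibitor detected on no HS array, by 2.89 on the fitted scale. GLIPR1 changed by 1.39 and -1.40, a difference of 2.79.

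The other 5 were lower with HS5. DHRS9, a retinol dehydrogenase, differed by -2.11, the stress gene NDRG1 by -2.19 and MTL5 by -2.34. PPP1R1B, a phosphatase inhibitor detected on 1 HS5 array, differed by -2.59 by the probe used, while a second probe did not pass the test (-0.04, adjusted p = 0.941). VPREB3 changed by -2.19 with HS5, where it was detected on no array, and by 1.12 with HS, a fitted difference of -3.31.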

How the results depend on the processing

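Against untreated cells, the count of 6271 called genes lay between 5625 and 6481 under the other fits of all arrays, 6182 with the replicate block, and between 5669 and 5746 with 1 array left out. It was 1304 (862 higher, 442 lower) when a change had to exceed 1.5-fold. With arrays shifted to a common median, 62.3% of called genes were higher, against 49% after quantile normalization. Against Ara-C alone, the count of 101 became 205 without background correction and in the authors' deposited log2 table, 192 with an offset of 50, 62 with only the arrays of the groups compared, 58 with the replicate block, 1 with the minimum of 1.5-fold, and 28 to 50 with 1 array left out. The cause was not tested, except that leaving out arrays lowers the number of samples. With the common median, 34.3% of these calls were higher, against 58.4%. Against Ara-C with HS, the count of 4830 became 591 with the minimum of 1.5-fold, lay between 4156 and 5046 under the other fits, 4707 with the replicate block, and between 4236 and 4364 with 1 array left out. HS5 and untreated arrays of the same replicate number showed no shared deviation, and pairing with the other groups was not checked.

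Of 2813 values of 176 named genes against untreated under 16 alternatives, 2793 kept direction and call. The call was lost in 10 (3 genes: MCL1, TFRC and ITGA2B). Another 10 changed sign where neither fit called the gene, and 0 changed sign where either fit called it. The interferon members called higher than with Ara-C alone, recounted in a setting added after the data were seen, numbered 15 to 28 across fits without a minimum fold, 10 to 14 with 1 array left out and 0 with the minimum of 1.5-fold. The medians of metallothioneins and class II genes changed sign with the common median (0.05 and 0.16). A block for the slide could not be fitted because all arrays lay on 1 slide. Signals near background limit dim genes to bounds.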
